A study of Cyanidioschyzon merolae with 8 samples.

Results

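CMJ100C and CMJ101C are 2 small heat shock protein genes of the unicellular red alga Cyanidioschyzon merolae, which lie next to each other on chromosome 10 in the reference gene order. Both were taken by their gene IDs, 2 of the 5091 IDs in the authors' deposited expression table. CMJ101C was selected on the values described here, because its level was below the dark control under blue light and above it under red light. Those values therefore describe the gene and carry no test.

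Cells of the wild-type strain 10D were grown at 42 °C in acid medium of pH 2.3 under continuous light of 100 µmol photons per square metre and second. The blue-light cells then spent 36 h in darkness and received 30 min of blue light at 15 µmol photons per square metre and second. Their dark control received none. The red-light cells received 30 min of red light, at an intensity not stated in the sources used here, after being kept dark, and they have a dark control of their own. The labels give the length of the dark period with the blue experiment and state no other for the red one. Each of these 4 groups had 2 biological replicates, but the table holds 1 value per group in which the replicates are already combined. No spread between replicates can be given, and the sequencing depth is unknown. Values are in FPKM, in which fragment counts are scaled both to sequencing depth and to the length of the transcript.

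Small heat shock proteins share a core called the alpha-crystallin domain and form large assemblies. They hold unfolding proteins in a soluble state without using ATP, and chaperones of the Hsp70 and Hsp100 families refold what they hold. Their genes are classic targets of heat and of other stress that unfolds proteins, and in this alga the promoter of CMJ101C has served as a heat-inducible promoter for introduced genes. The protein and promoter sequences of the pair were not analysed here.

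CMJ101C stood at 54.2 FPKM under blue light, against 216 FPKM in its dark control. Under red light it stood at 4784 FPKM, against 256 FPKM in the dark control of that light. The level was thus 4.0-fold lower under blue light, a log2 ratio of -2.0, and 18.7-fold higher under red light, a log2 ratio of 4.22. In a bulk extract, less RNA per cell and fewer cells that hold the transcript cannot be told apart. In order from the lowest, the levels ran from blue light through the 2 dark controls to red light, and the dark controls lay closest together. The dark controls were set against each other by no test. The authors' tests of each light against its dark control belong to the choice of the gene. Where their results for CMJ101C appear below, they only describe it.

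**Figure D1:**
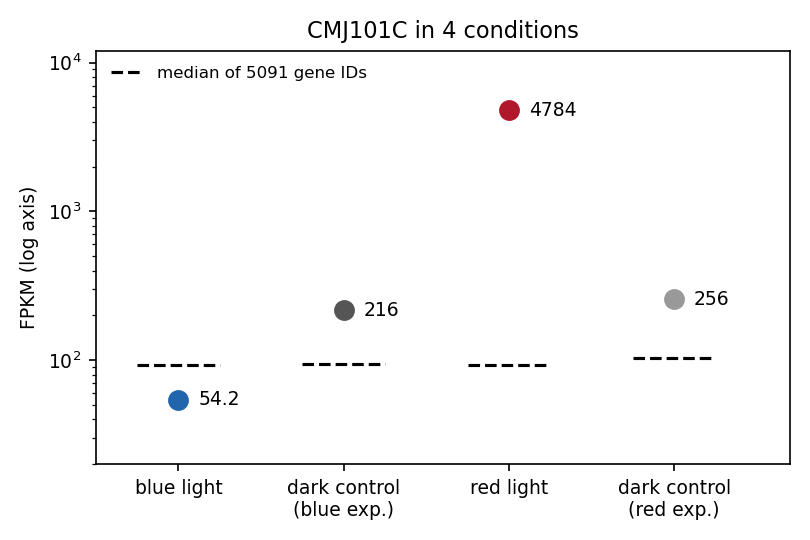
FPKM of CMJ101C (log axis) in the 4 conditions, 1 value per condition with the 2 replicates combined, so no error bars; dashed lines give the median of all 5091 gene IDs. The gene lies below the median line under blue light (54.2 FPKM), above it in both dark controls (216 and 256 FPKM) and far above it under red light (4784 FPKM).

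Set among all IDs of the table, CMJ101C stood near the top under red light and in the lower part of the ranking under blue light. Under red light only 7 IDs had a higher FPKM, which made it the 8th highest of 5091, against the 905th place in the red dark control. Under blue light it held the 3635th place, against the 1081st in the blue dark control. The median over all IDs was 92.6 FPKM under blue light, 94.2 FPKM in its dark control, 93.0 FPKM under red light and 104 FPKM in the red dark control, and so moved far less than CMJ101C.

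The 2 dark controls differed little for this gene. Its level in the red dark control was 1.18-fold that in the blue dark control, a log2 difference of 0.24. The median over 4390 genes that the authors tested under both lights, with all 4 values above 0, was 0.18, with quartiles of -0.43 and 0.66. The lit cells were far apart: the red-light level was 88.3-fold the blue-light level, a log2 difference of 6.46, where the median gene stood at -0.17. Only 3 of the 4390 genes had a larger difference between lit cells in this direction. Whether these dark levels bear on the opposite responses of CMJ101C was not tested. The sources used here do not say whether the authors scaled both experiments together.

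The red minus the blue log2 ratio of CMJ101C was 6.22, the 4th highest of the 4390 genes. CME054C, CMH216C and CMQ418C lay above it, at 7.72, 7.64 and 7.33. CME054C was at 5.2 FPKM under blue light and 318 FPKM in its dark control, and CMH216C and CMQ418C were at 0.558 and 0.711 FPKM under blue light. None of these 3 had an authors' q-value under 0.05 under blue light, the threshold used throughout for a gene that rose or fell (the authors' own mark follows a stricter 0.01). They stood at q = 0.569, 0.310 and 0.255 in the authors' deposited table. CMH216C and CMQ418C were lower under red light as well, with log2 ratios of -1.33 and -1.28, so they did not change direction. Among genes that fell under blue light and rose under red light past the threshold, CMJ101C thus had the widest difference. It was picked for its opposite directions, and genes that changed the other way were not ranked by width.

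A rise of this size under red light was usually a rise under blue light too. In the authors' deposited table, 72 of 4447 genes tested under red light, or 1.62%, were at least 8-fold higher with a q-value under 0.05. Of all 4517 genes tested under blue light, 22.2% rose and 18.4% fell. Of the 72 genes, 57 also rose under blue light, 12 did not pass the threshold there and 3 fell, and their median blue log2 ratio was 3.01. The 3 that fell were CMJ101C, CMB155C and CMP086C. CMB155C stood at 340 FPKM under blue light against 739 FPKM in its dark control, and at 1219 FPKM under red light against 95.1 FPKM in its dark control. CMP086C stood at 710 FPKM under blue light against 3269 FPKM in its dark control, and at 897 FPKM under red light against 105 FPKM in its dark control. Both of these genes had a dark level in the red experiment several times below that in the blue experiment. For CMJ101C the dark level was 256 FPKM in the red experiment and 216 FPKM in the blue one. Whether such differences bear on the ratios was not tested. CMN234C and CMV048C were also lower under blue light, with log2 ratios of -0.51 and -0.35, but with q = 0.532 and 0.450 there.

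**Figure D2:**
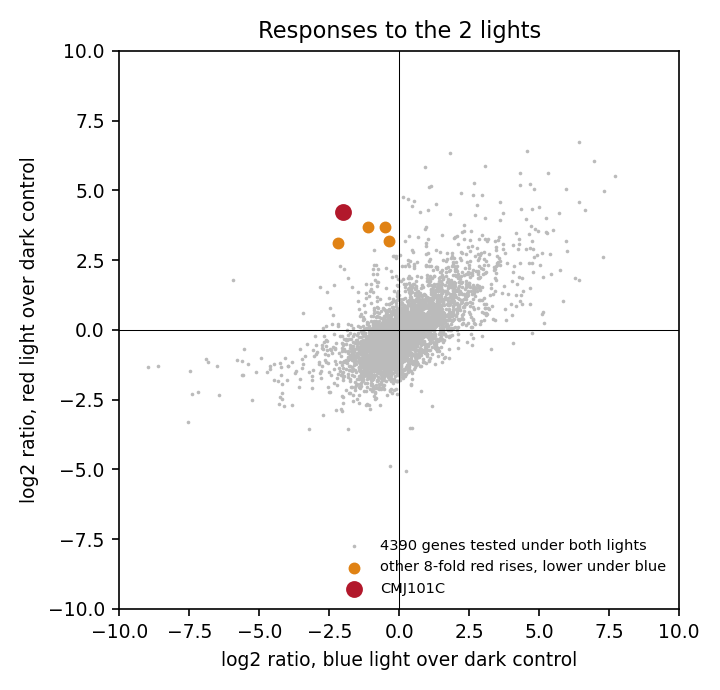
Log2 FPKM ratio of red light over its dark control against that of blue light over its dark control for 4390 genes (grey), with CMJ101C in red and, in orange, CMB155C, CMP086C, CMN234C and CMV048C, the other genes at least 8-fold higher under red light with a lower value under blue light. CMJ101C lies at -2.0 and 4.22, apart from the cloud, in which most steep red rises lie at positive blue ratios.

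In the red experiment CMJ101C had the highest FPKM of these 72 genes, both under red light and in the dark control. Its 4784 FPKM under red light was the highest among them, ahead of 2000 FPKM for the next gene, and their median was 288 FPKM. Its 256 FPKM in the red dark control was the highest as well, with 179 FPKM for the next gene and a median of 18.7 FPKM. By its log2 ratio it held the 23rd place of the 72. Most of the other steep rises thus started from a low dark level, whereas CMJ101C started above 79.5% of the 4390 genes.

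In the blue comparison, 140 of the 4390 genes had a lower log2 ratio than CMJ101C, where the median was -0.02 and the lower quartile -0.65. In the authors' deposited table, 18.4% of 4517 tested genes fell under blue light and 22.2% rose, and under red light 27.1% of 4447 fell and 14.9% rose. Apart from CMJ101C, 128 genes past the threshold fell at least as far under blue light. Under red light 87 of them fell, 36 did not pass the threshold and 5 rose, and their red log2 ratios ran from -3.57 to 3.09 with a median of -1.25. The 5 that rose were CMG217C, CMK075C, CMP086C, CMP346C and CMT028C, with red log2 ratios of 0.80, 2.29, 3.09, 1.36 and 1.62. CMJ101C, at 4.22, lay above all of them. Of the 4390 genes, 48 passed the threshold under both lights in opposite directions. CMJ101C is 1 of the 24 among them that fell under blue light and rose under red light. Within these 24 it had the highest red ratio, ahead of CMB155C at 3.68, and the 6th largest blue fall. The median ratios of the 24 were -1.15 under blue light and 1.56 under red light.

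The authors' deposited test statistic for CMJ101C was -3.84 under blue light and 4.33 under red light, while the log2 ratios were -2.0 and 4.22. The log2 ratio divided by the statistic was 0.521 under blue light, near the median of 0.465 for the 4390 genes. Under red light it was 0.975, where the median was 0.453 and 187 genes, CMJ101C included, had a value at least as large. Among the 72 steep red rises the median under red light was 0.979, and 38 of them, CMJ101C included, had a value at least as large as that of CMJ101C. The sources used here do not say how the statistic was formed, so this quotient is no standard error and is given as a description only. CMJ101C was chosen on these comparisons, so its statistics carry no test.

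The row of CMJ100C could not be read as the level of that gene. It gives 0 FPKM under blue light and 2.56 FPKM in the blue dark control, and 0.0145 FPKM under red light and 11.7 FPKM in the red dark control. The authors tested it in neither comparison. No fold change is given under blue light, where it is listed at 0. More than a low level stands against reading these values: the table places CMJ100C at chr10:290658-292453, which is exactly the locus it gives for CMJ098C, and not between CMJ099C and CMJ101C, where the reference has it. CMJ098C itself stood at 125 FPKM under blue light against 128 FPKM in its dark control, and at 91.4 FPKM under red light against 140 FPKM in its dark control, with q = 0.942 and 0.0603 in the authors' deposited table.

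The stretch of 1387 bp that the table leaves between the loci of CMJ099C and CMJ101C is covered by 0 IDs, although it is where CMJ100C belongs in the reference order. No row of the table therefore has a locus in that stretch, and the values in the row of CMJ100C are not read as a response of that gene to either light. Misplacement of this kind was rare over all nuclear IDs but more frequent on chromosome 10. Of 4752 nuclear IDs matched to the reference, 4491 had a locus start within 3 bp of the reference gene and 56, or 1.18%, had a locus that did not overlap it. Of these 56 IDs, 38 shared their locus with another ID and 33, or 58.9%, were tested under neither light, against 5.47% of the IDs whose locus did overlap. On chromosome 10 there were 12 such IDs among 243, and the locus of each started 4011 to 5366 bp before the reference gene. CMJ309C and CMJ311C, the 2 of the 12 that are alone in their locus, both started 4217 bp before it. CMJ101C was not misplaced in this way: it is alone in its locus, chr10:295920-296640 in the table, which overlaps the reference gene of 720 bp. Whether reads of CMJ100C were counted there could not be checked without sequences.

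**Figure D3:**
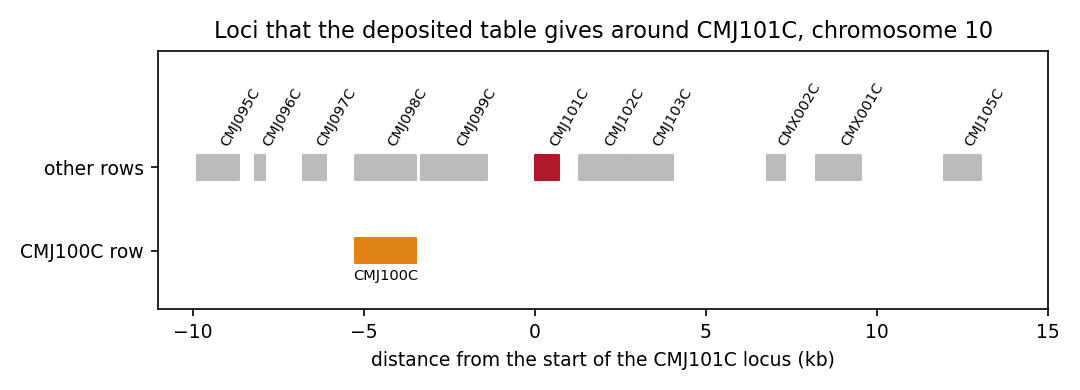
Loci that the authors' deposited table gives around CMJ101C on chromosome 10, as distance in kb from the start of the CMJ101C locus (red); the row of CMJ100C is in orange below the others. The orange bar spans the same stretch as CMJ098C, and the 1387 bp between CMJ099C and CMJ101C hold no locus.

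The genes around CMJ101C did not share its pattern. Its 10 neighbours in the table, 5 on each side with CMJ100C left out, were all tested under both lights. Under blue light 5 of the 10 rose and 0 fell, where 22.2% of all tested genes rose and 18.4% fell. Under red light 3 rose and 0 fell, where 14.9% rose and 27.1% fell. At an unadjusted p-value under 0.05 in the authors' deposited table, 0 of the 10 were lower under blue light and 1 under red light. At that threshold 6 were higher under blue light and 6 under red light. The median log2 ratio of the 10 was 0.76 under blue and 0.67 under red light, against -0.02 and -0.25 over the 4390 genes. None of the 10 had a blue ratio as low as that of CMJ101C, since the lowest, that of CMJ097C, was -0.62.

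The closest genes on either side had their highest values under red light. CMJ099C, on the side of CMJ100C, stood at 36.2 FPKM under blue light against 8.27 FPKM in its dark control, and at 166 FPKM under red light against 98.1 FPKM in its dark control. It rose under blue light with q = 0.00175 and had q = 0.0709 under red light in the authors' deposited table. CMJ102C, whose locus begins 569 bp after that of CMJ101C, stood at 99.6 FPKM under blue light against 76.9 FPKM in its dark control, and at 131 FPKM under red light against 88.1 FPKM in its dark control. It passed the threshold under neither light, with q = 0.352 and 0.0858. CMJ103C, CMJ097C and CMX002C did not pass it either, with log2 ratios between -0.62 and 0.68 over both lights.

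Farther along the chromosome, CMJ105C rose steeply under both lights and CMX001C under blue light. CMJ105C stood at 673 FPKM under blue light against 55.6 FPKM in its dark control, and at 172 FPKM under red light against 11.3 FPKM in its dark control, with q = 0.00045 in each comparison of the authors' deposited table. CMX001C stood at 589 FPKM under blue light against 25.1 FPKM in its dark control with q = 0.00045. Under red light it stood at 193 FPKM against 2.26 FPKM in its dark control, with q = 0.0507. On the other side, CMJ095C and CMJ096C rose under both lights, with log2 ratios of 0.85 and 1.33 under blue light and 0.86 and 0.92 under red light. Among these 10 neighbours and CMJ101C, only CMJ101C passed the threshold under both lights in opposite directions, and it was chosen for that.

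**Figure D4:**
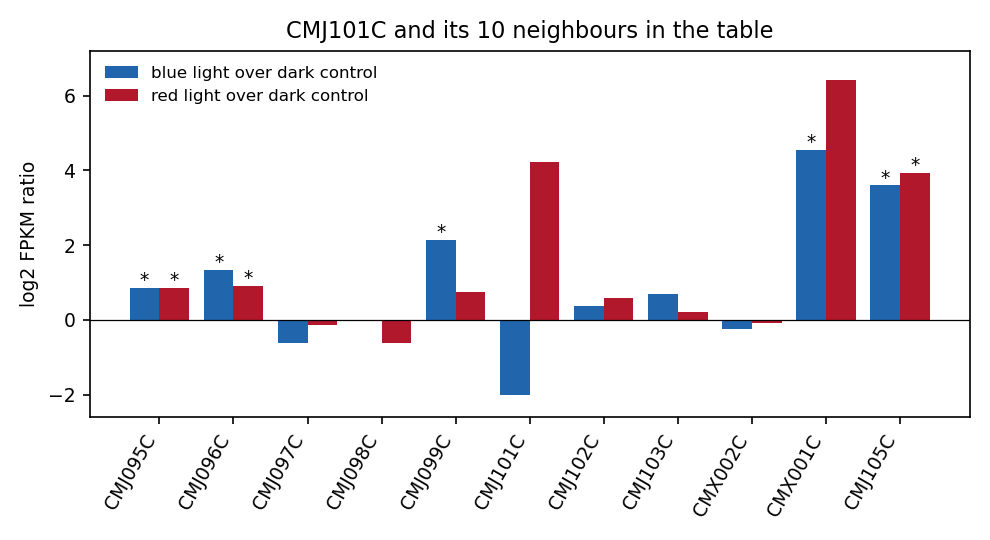
Log2 FPKM ratio of light over dark control for CMJ101C and its 10 neighbours in the order of the authors' deposited table, blue bars for blue light and red bars for red light; an asterisk marks a neighbour with a q-value under 0.05, and CMJ101C carries no mark because it was chosen by these ratios. The blue bar of CMJ101C, at -2.0, is the lowest of the 11 genes, and only CMX001C has a higher red bar.

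The gene with the most similar pattern was still far from CMJ101C. Likeness was measured as the Euclidean distance over the 4 log2 FPKM values, each gene centred on its own mean, among the 4390 genes. CMJ100C has no such pattern, since it is listed at 0 under blue light. The nearest gene, CML339C, lay at a distance of 2.29, and 0 of the other genes were as far from their own nearest gene, for which the median distance was 0.0784. CMJ101C was chosen on these same 4 values for its opposite directions, so its distance only describes it and carries no test. CML339C stood at 32.1 FPKM under blue light against 29.4 FPKM in its dark control, and at 459 FPKM under red light against 129 FPKM in its dark control. It shared the high red value but had no lower blue one, with log2 ratios of 0.13 and 1.83.

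The other named genes followed at distances of 2.46 for CMP092C, 2.54 for CMM158C, 3.21 for CMS429C and 3.30 for CMH080C. CMM158C matched both directions. It stood at 200 FPKM under blue light against 796 FPKM in its dark control, and at 2042 FPKM under red light against 456 FPKM in its dark control. Its log2 ratios were -1.99 and 2.16, with q = 0.00045 and 0.00115 in the authors' deposited table, so its blue ratio was nearly that of CMJ101C and its red ratio about 2 log2 units smaller. CMP092C rose under red light alone past the threshold, with log2 ratios of -0.19 under blue light and 1.40 under red light. CMS429C rose under both lights, with 0.94 and 2.34. CMH080C fell under blue light, with -3.01, and had -0.23 under red light with q = 0.600. None of these 5 genes has a description in the sources used here, and the likeness rests on 4 values per gene.

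**Figure D5:**
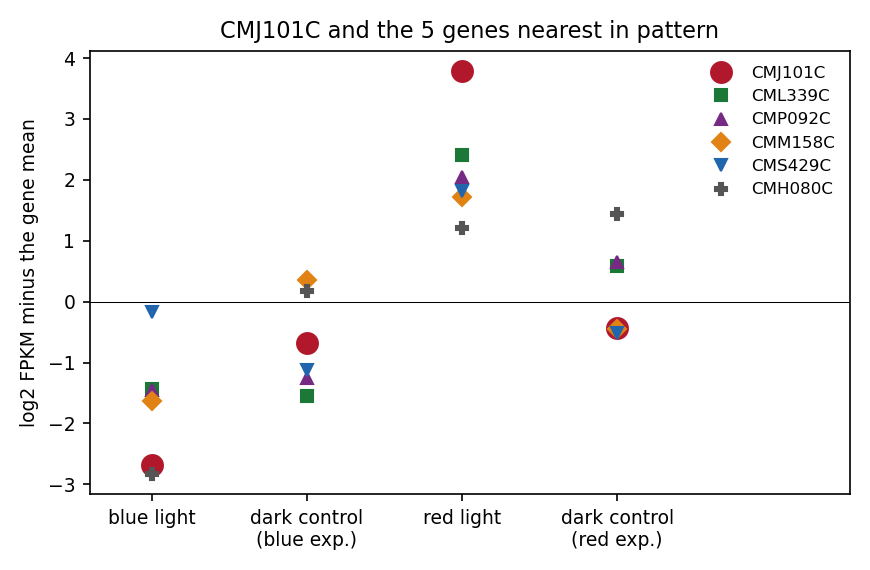
Log2 FPKM minus the gene mean in the 4 conditions for CMJ101C (large red circles) and the 5 genes at the smallest distance from it; each symbol is 1 value per condition. CMJ101C has the highest red-light value of the 6 genes, and CML339C, the nearest at a distance of 2.29, parts from it most under red and blue light.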

How the data were processed

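RNA from 8 samples was selected on oligo(dT) beads and sequenced as paired reads. Per the submitters' processing notes, Cuffdiff, TopHat, TopHat2 2.0.5, Trimmomatic 0.32 and FastQC 0.11.5 were used, and neither build nor annotation is stated in the sources used here. The authors deposited FPKM, 1 value per condition with replicates combined, so depth is unknown and no SD or test over samples was possible. The authors' deposited q-values, adjusted by them, made every call at a q-value under 0.05. Their deposited test statistic is a score, 0 where a gene was not tested. The log2 ratios were computed here from the FPKM with no pseudocount. Loci and gene order were compared with the RefSeq table of assembly ASM9120v1, which gives locus tags and no descriptions. A list of chaperone genes by protein signature or description, and a search of promoters, were planned and could not be made without sequences. The members and the rules for other named genes (the 10 neighbours and the 5 genes most like CMJ101C) were chosen with earlier results of these data known. Reads of overlapping genes or near-identical copies may not be told apart. Python 3.11.15, numpy 2.4.6, pandas 2.3.3, scipy 1.17.1 and matplotlib 3.10.9 were used, and the code was tested on simulated data.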

Additional observations from a re-analysis of the deposited data

How the results depend on the processing

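CMJ101C kept its directions under each of the settings tried, although a pseudocount added to both values cannot reverse a direction. Its blue log2 ratio was -1.98 with a pseudocount of 1 FPKM, -1.82 with 10 FPKM, -1.99 centred on the median of tested genes, -1.98 relative to the median of genes of like locus length and -2.01 as a share of summed FPKM, a scale chosen after seeing the data. In the same order, its red ratio was 4.22, 4.17, 4.48, 4.26 and 4.25. The difference between its ratios was 6.20 with a pseudocount of 1 FPKM, 6.47 centred and 6.26 as a share of summed FPKM. The red row listed for CMJ100C was untested and is not read as a response of that gene. Its log2 ratio was -9.65 with no pseudocount, -3.64 and -1.11 with pseudocounts of 1 and 10 FPKM, and -9.39 centred. The size of that ratio thus follows the pseudocount. With p-values adjusted within each comparison alone, 1 of the 10 neighbours fell under red light, CMJ098C, and 4 rose. By the blue and red ratios alone, the 5 genes nearest to CMJ101C were CMB155C, CMP086C, CMN234C, CMJ288C and CMK075C, of which 0 were among the 5 named. In the authors' deposited table CMN234C had q = 0.532 under blue light, and CMJ288C had q = 0.845 under blue and 0.611 under red light. The locus of CMJ288C, like that of CMJ100C, does not overlap the reference gene. The alternatives for the chaperone list, for the blue ratio and the pattern of CMJ100C, and for leaving out replicates could not be run. No paired analysis was possible because the deposited values combine the replicates.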

Other observations

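The table holds a further value beside a locus placed like that of CMJ100C. CMJ309C, whose locus on chromosome 10 also does not overlap the reference gene, stood at 243 FPKM under blue light against 1.94 FPKM in its dark control, and at 54.0 FPKM under red light against 0.810 FPKM in its dark control. Its q-values in the authors' deposited table were 0.199 and 0.357. Of the 12 chromosome 10 IDs with such a locus, CMJ197C and CMJ288C were also tested under both lights, and they passed the threshold under neither.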
